A study of Mus musculus with 19 samples.

Results

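The CCAAT/enhancer-binding protein (C/EBP) family is a set of leucine zipper transcription factors, and 5 of its genes are described here: Cebpa (transcript cluster 17476728), Cebpb (17379938), Cebpd (17323297), Cebpe (17306472) and Cebpg (17489707). They were taken as the clusters whose platform annotation names exactly 1 gene symbol of the family. Each gene had 1 such cluster, and no cluster named a member together with another gene. The 5 genes are part of 22180 genes with a cluster of 1 symbol in the table.

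C/EBP proteins bind DNA as pairs of subunits, with one another and with related leucine zipper proteins, at sites of the TTGCNNAA type. In fat cell precursors given a hormone cocktail, Cebpb and Cebpd are known as the early members, and their proteins act on the genes for Cebpa and for the nuclear receptor Pparg, which then keep each other active in fat cells. Cebpg lacks the activating part of its relatives and works mainly as a partner subunit, and Cebpe is known from the maturation of granulocytes.

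The study removed MED1, part of the Mediator complex, which connects transcription factors with RNA polymerase II. MED1-KO 3T3-L1 cells, from a mouse fibroblast line that can become fat cells, were made with CRISPR/Cas9, and each MED1-KO array holds RNA pooled from individual clones. They were compared with their parental WT 3T3-L1 cells, and by their titles there were 2 arrays of each genotype at day 0 and 2 at day 2 of differentiation. Since the knockout cells went through cloning and the parent line did not, cloning and loss of MED1 cannot be told apart. In interscapular brown adipose tissue (BAT) of E17.5 embryos, 4 arrays of Myf5CreMed1f/f were compared with 3 of Myf5CreMed1f/w. The Myf5CreMed1f/w embryos also carry Cre and 1 floxed allele, and Myf5-Cre acts in precursors of both brown fat and skeletal muscle. In BAT of mice at 10 weeks, 2 arrays of AdipoqCreMed1f/f were compared with 2 of Med1f/f, which has both floxed alleles but no Cre, and Adipoq-Cre acts in fat cells.

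Values are log2 signals per array, and the medians of the table lay at 4.69 to 4.79 in the cells, 3.49 to 3.57 in embryonic and 2.87 to 2.89 in adult BAT, so levels were compared within an experiment only. The day given by the source label is not that of the title for 4 of 8 cell arrays. These are the arrays titled day 2 replicate 1, labelled as before stimulation, and day 0 replicate 2, labelled as after it. Days follow the title here. By the source label, each group holds 1 array of each title day, so a change between the title days would be hidden there. With the source label's days, none of the calls reported below for day 2 or over the days was kept (adjusted p = 1 for each C/EBP or listed gene). A gene was called where limma's p, adjusted by Benjamini-Hochberg over all 22180 genes, was under 0.05. Med1 itself was 7.07 and 7.16 in MED1-KO cells on day 0 and 7.08 and 7.0 on day 2, against 8.23 and 8.48 in WT cells on day 0 and 8.55 and 8.28 on day 2. In embryonic BAT the groups overlapped for Med1, with 7.0, 7.10, 7.10 and 6.88 in Myf5CreMed1f/f and 6.94, 7.33 and 7.82 in Myf5CreMed1f/w. In adult BAT it was 5.28 and 5.13 in AdipoqCreMed1f/f and 5.99 and 6.90 in Med1f/f. A cluster can also read probes outside a deleted exon, and other cells of a tissue can keep the gene. Neither their part in these Med1 signals nor how complete the deletion was has been tested. Of 9 brown fat markers, 8 or 9 lay above the median of every BAT array, and all 6 fibroblast markers lay above it in every cell array.

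The promoters of 3 of the 5 members, Cebpa, Cebpb and Cebpg, were found among the RefSeq promoters (GRCm38.p6). No entry was found there for Cebpd, which had the largest day change in the cells, or for Cebpe. The 3 windows differ in their motifs, and any tie of the motifs to the changes in the cells was not tested. Each runs from 250 bases before the start to 50 after it, on the strand of the gene. Capitals mark matches, on either strand, to CCAAT (the box that gave the family its name), TTGCNNAA (the C/EBP site), TGACGTCA (the cAMP response element) with TGACG as its core, and to TATAAA (the TATA box) and GGGCGG (the SP1 motif). The core lies within the whole element, and neighbouring GGGCGG matches can overlap.
Cebpa, chr7:35119043-35119342, plus strand: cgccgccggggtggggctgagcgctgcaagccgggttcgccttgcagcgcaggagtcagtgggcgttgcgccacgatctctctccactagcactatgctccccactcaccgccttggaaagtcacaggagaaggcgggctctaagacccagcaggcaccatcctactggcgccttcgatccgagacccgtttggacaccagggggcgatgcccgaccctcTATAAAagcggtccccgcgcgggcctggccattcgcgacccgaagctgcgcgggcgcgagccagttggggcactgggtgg
Cebpb, chr2:167688665-167688964, plus strand: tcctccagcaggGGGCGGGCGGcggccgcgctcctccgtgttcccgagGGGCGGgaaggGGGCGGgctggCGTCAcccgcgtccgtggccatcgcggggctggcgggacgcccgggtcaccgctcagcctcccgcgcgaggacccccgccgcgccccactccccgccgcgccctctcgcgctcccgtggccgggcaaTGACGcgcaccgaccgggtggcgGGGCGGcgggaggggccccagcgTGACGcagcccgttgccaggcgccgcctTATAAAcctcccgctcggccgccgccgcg
Cebpg, chr7:35056517-35056816, minus strand: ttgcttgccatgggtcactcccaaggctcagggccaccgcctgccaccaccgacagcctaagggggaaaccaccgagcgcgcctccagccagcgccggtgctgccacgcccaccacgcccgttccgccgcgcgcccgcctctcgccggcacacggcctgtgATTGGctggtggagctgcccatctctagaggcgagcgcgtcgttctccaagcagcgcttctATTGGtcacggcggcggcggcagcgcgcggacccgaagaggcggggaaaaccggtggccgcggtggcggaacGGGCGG
The Cebpa promoter had a single match, TATAAA at -30 to -25, the TATA box motif, which was present in 13.6% of 32851 promoters of this length. The Cebpb promoter, with 80.7% G and C, held 3 matches to TGACG, the core motif (20.8% of promoters), TATAAA at 22 to 27 and 5 matches to GGGCGG (35.7%). Of these, 2 GGGCGG matches overlap each other. The Cebpg promoter held 2 matches to CCAAT on the other strand (37.4% of promoters) and 1 to GGGCGG. None of the 3 windows held an exact match to TTGCNNAA (10.8%) or TGACGTCA (1.79%). Variants of these motifs were not searched for, so the lack of a match does not mean that a window lacks a C/EBP site. Cebpg and Cebpa both lie on chromosome 7, and the annotation places 1 gene between them, the lncRNA Gm35611.

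In the cells, Cebpb and Cebpd, the early members, were higher on day 2 than on day 0 in both genotypes. Cebpb was 8.86 and 8.91 in MED1-KO cells on day 2, against 7.21 and 7.20 on day 0. In WT cells it was 8.86 and 9.24 on day 2, against 7.21 and 7.21 on day 0. The log2 fold change of Cebpb, day 2 over day 0, was 1.68 ± 0.15 in MED1-KO cells (SE, 3.21-fold, limma adjusted p = 3.1e-04). In WT cells it was 1.84 ± 0.15 (3.57-fold, limma adjusted p = 1.1e-04). Cebpd had the largest day change of the family. It was 8.46 and 8.0 in MED1-KO cells on day 2, against 5.21 and 5.46 on day 0, and 8.20 and 7.69 in WT cells on day 2, against 5.30 and 5.03 on day 0. The log2 fold changes were 2.90 ± 0.21 in MED1-KO cells (7.46-fold; adjusted p = 1.6e-04) and 2.78 ± 0.21 in WT cells (6.86-fold; adjusted p = 9.7e-05).

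Cebpa, which drives the later program of fat cells, also rose over the days in both genotypes. It was 5.88 and 5.74 in MED1-KO cells on day 2, against 5.15 and 4.95 on day 0, a log2 fold change of 0.76 ± 0.13 (1.69-fold; adjusted p = 0.0087). In WT cells it was 7.17 and 7.18 on day 2, against 5.53 and 5.46 on day 0, a log2 fold change of 1.68 ± 0.13 (3.21-fold; adjusted p = 9.3e-05). The call in MED1-KO cells was lost without MED1-KO day 2 replicate 1 (0.69; adjusted p = 0.084) and without MED1-KO day 0 replicate 2 (0.66; adjusted p = 0.083), and the other calls of members in these comparisons held for every array left out.

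Cebpg and Cebpe did not pass the test for day. Cebpg, the partner subunit, was 8.25 and 8.11 in MED1-KO cells on day 2, against 8.16 and 7.96 on day 0 (log2 fold change 0.12 ± 0.14; adjusted p = 0.77). In WT cells it was 8.42 and 8.19 on day 2, against 8.01 and 7.89 on day 0 (0.35 ± 0.14, limma adjusted p = 0.17). Cebpe was 4.58 and 4.94 in MED1-KO cells on day 2, against 4.87 and 4.90 on day 0, and 4.95 and 4.71 in WT cells on day 2, against 4.56 and 4.63 on day 0. Its log2 fold changes were -0.12 ± 0.15 in MED1-KO cells (limma, adjusted p = 0.79) and 0.24 ± 0.15 in WT cells (adjusted p = 0.43). Cebpe lay near the middle of each cell array, at the 46th to 54th percentile of all 41345 clusters. The granulocyte markers of its known lineage stood low as well, with 0 or 1 of 11 above the median of a cell array.

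In all, 3 of the 5 members rose over the days in each genotype. Over all genes tested, 2.14% rose in MED1-KO cells and 3.44% in WT cells. With days by the source label, each group holds 1 array of each title day, and no member was called (adjusted p = 1 each). In MED1-KO cells the values were then -0.17 for Cebpa, 0.02 for Cebpb and -0.11 for Cebpd, and in WT cells -0.03 for Cebpa, 0.19 for Cebpb and -0.39 for Cebpd. The median log2 fold change of all genes was between -0.01 and 0.03 in every comparison here.

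**Figure D1:**
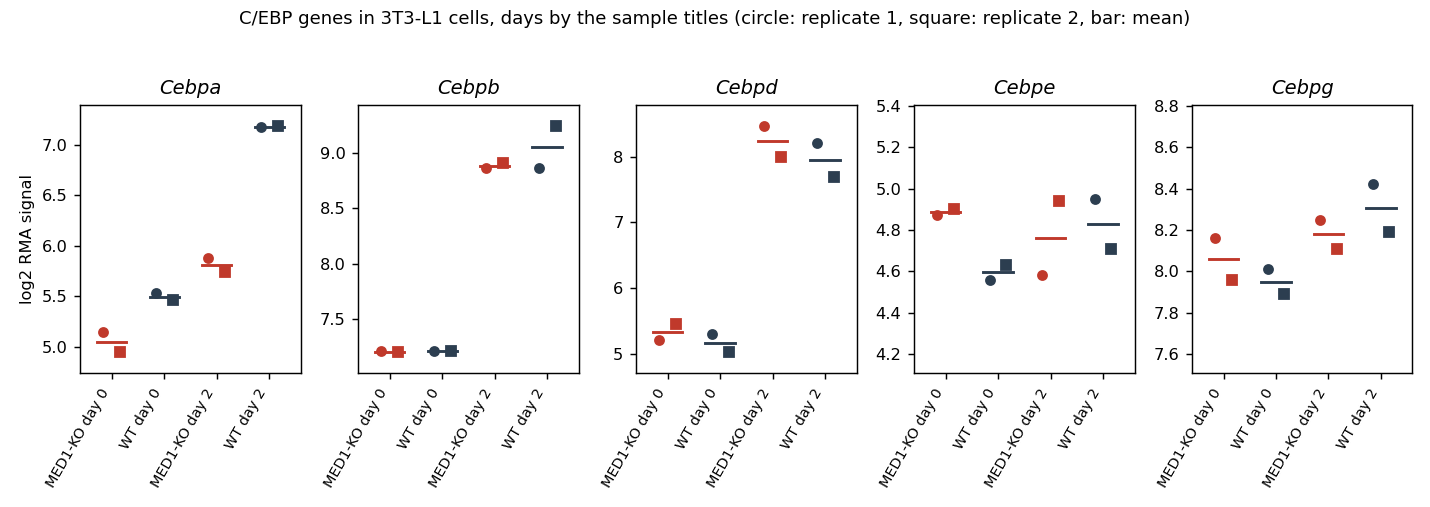
The log2 signal of the 5 C/EBP genes is plotted for each 3T3-L1 array by genotype and title day, with a bar at the mean of each group of 2 arrays. Cebpb and Cebpd stand high on day 2 in both genotypes, and Cebpa reaches 7.17 and 7.18 in WT cells on day 2 while MED1-KO cells have 5.88 and 5.74.

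The comparison of genotypes asked which members differ between MED1-KO and WT cells. On day 2, Cebpa was lower in MED1-KO cells than in WT cells, with signals of 5.88 and 5.74 against 7.17 and 7.18. The log2 fold change was -1.36 ± 0.13 (2.57-fold lower; 95% interval -1.65 to -1.08; limma, adjusted p = 0.0039), and Cebpa ranked 10 by p among all genes. It was the 1 member of 5 called, where 0.234% of all genes were called lower. Without MED1-KO day 2 replicate 2 the change was -1.30 and the adjusted p 0.055, and with days by the source label it was -0.97 with an adjusted p of 1.

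The other members did not pass the test on day 2, and their intervals bound the differences. Cebpb differed by -0.16 ± 0.15 (95% interval -0.49 to 0.17; adjusted p = 0.85) and Cebpd by 0.29 ± 0.21 (-0.20 to 0.77; adjusted p = 0.8). The sign for Cebpb turned to 0.03 without WT day 2 replicate 2. Cebpg differed by -0.12 ± 0.14 (adjusted p = 0.89) and Cebpe by -0.07 ± 0.15 (adjusted p = 0.96).

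On day 0 no member was called, with 0.185% of all genes called. Cebpa was 5.15 and 4.95 in MED1-KO cells against 5.53 and 5.46 in WT cells (-0.44 ± 0.13, limma adjusted p = 0.62). The log2 fold changes of the others were -0.01 ± 0.15 for Cebpb, 0.17 ± 0.21 for Cebpd, 0.29 ± 0.15 for Cebpe and 0.11 ± 0.14 for Cebpg (adjusted p = 1 each). Cebpb was almost the same in the 4 day 0 arrays, at 7.20 to 7.21.

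Over both days, each MED1-KO array was set against the WT array of the same title day and replicate number, a pairing that has the same day under either label. Cebpa was lower in the MED1-KO array of 4 of 4 pairs, by -0.38 and -0.51 in the day 0 pairs and by -1.29 and -1.44 in the day 2 pairs. The log2 fold change was -0.90 ± 0.18, which did not pass the adjusted threshold (limma, adjusted p = 0.12; 0 of 5 members called, against 0.289% of all genes). Without the pairs as a block, and with the title days in the model, the adjusted p was 0.0032, and with the source label's days in that model it was 1. Cebpb (-0.08 ± 0.09), Cebpd (0.23 ± 0.10), Cebpe (0.11 ± 0.12) and Cebpg (-0.01 ± 0.09) had adjusted p-values of 0.41 to 0.98. The Cebpd differences were -0.09 in the first day 0 pair and 0.27 to 0.43 in the rest, and Med1 differed by -1.31 ± 0.08 (adjusted p = 0.0011).

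An interaction term tested if the genotypes differed in their day change. For Cebpa the day change in MED1-KO cells minus that in WT cells was -0.92 ± 0.18 (95% interval -1.33 to -0.51), and limma's adjusted p was 0.52. With the source label's days the value was -0.14 (adjusted p = 1). The interaction was -0.15 ± 0.21 for Cebpb, 0.12 ± 0.30 for Cebpd, -0.36 ± 0.22 for Cebpe and -0.23 ± 0.20 for Cebpg (adjusted p = 1 each). By limma 0 of the 22180 genes were called (0%), with 941 at an unadjusted p under 0.05. With the replicate number as a block, 1 gene was called, and no member.

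**Figure D2:**
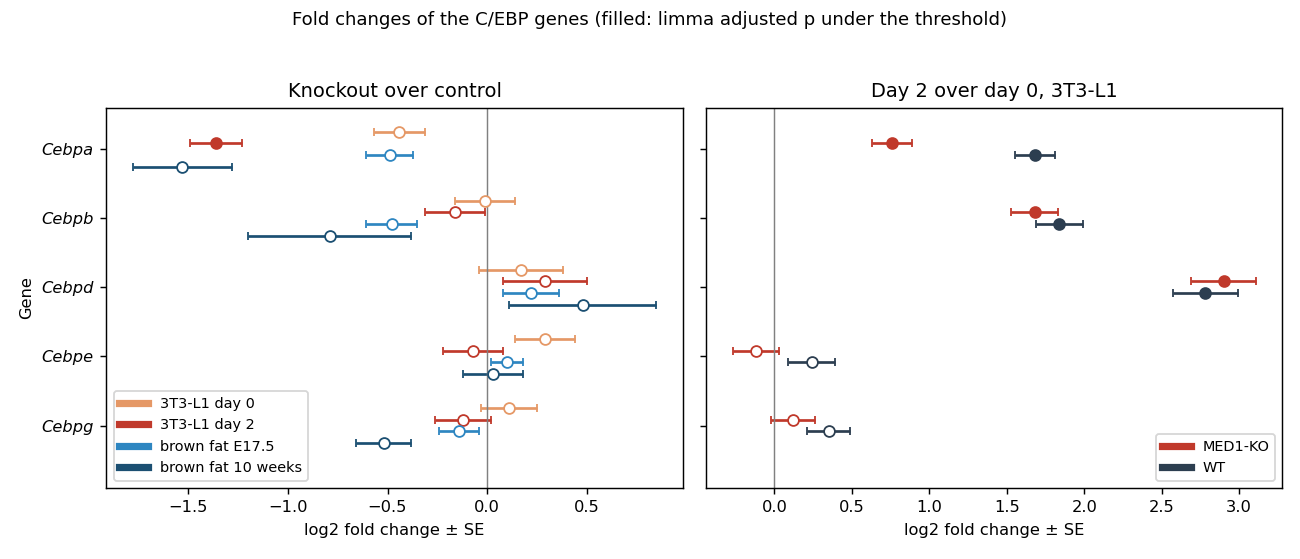
The log2 fold change of each C/EBP gene is plotted on the x axis for knockout over control (left, 4 comparisons) and for day 2 over day 0 (right, MED1-KO and WT cells), with bars for the standard error. Filled points passed an adjusted p of 0.05, and Cebpa lies at -1.36 on day 2 in cells, -0.49 in embryonic BAT and -1.53 in adult BAT, where the open points did not pass.

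Among the known upstream activators of the Cebp genes (Creb1, Egr2, Klf4, Nr3c1 and Stat3, 5 of 6 listed), none was called between genotypes in the cells. The list and those that follow were chosen with earlier results of these data known. Their median log2 fold change, MED1-KO over WT, was 0.13 on day 0, 0.15 on day 2 and 0.19 over both days, with all genes at -0.01 to 0.01. Over the days in WT cells, 1 rose and 1 fell, where 3.44% of all genes rose and 5.64% fell. Stat3, which carries cytokine signals, was 10.03 and 10.06 on day 2 against 9.28 and 9.08 on day 0 (0.87 ± 0.15; adjusted p = 0.0064). Nr3c1, the glucocorticoid receptor, was 8.08 and 8.10 on day 2 against 8.91 and 8.90 on day 0 (-0.82 ± 0.13; adjusted p = 0.005). In MED1-KO cells none of the 5 passed, with 0.55 ± 0.15 for Stat3 (adjusted p = 0.068) and -0.53 ± 0.13 for Nr3c1 (adjusted p = 0.052).

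Of 10 partners and modulators of C/EBP proteins, 0 were called between genotypes on day 0, on day 2 or over both days. Over the days, 2 rose and 2 fell in MED1-KO cells (median -0.37), and 2 rose and 3 fell in WT cells (median -0.36). Over all genes, 2.14% rose and 3.57% fell in MED1-KO cells, and 3.44% rose and 5.64% fell in WT cells. Trib1, a pseudokinase that directs C/EBP alpha protein to breakdown, was 8.89 and 8.08 in MED1-KO cells on day 2 against 6.87 and 6.42 on day 0, and 9.09 and 8.33 in WT cells on day 2 against 6.92 and 6.85 on day 0. Its log2 fold change was 1.84 ± 0.30 in MED1-KO cells (adjusted p = 0.0075) and 1.83 ± 0.30 in WT cells (adjusted p = 0.0056). Trib2, its relative, rose by 1.0 ± 0.18 in MED1-KO and 1.42 ± 0.18 in WT cells. Runx1t1, a corepressor that binds C/EBP beta, fell in both genotypes, with changes of -1.18 ± 0.18 in MED1-KO and -1.62 ± 0.18 in WT cells. Ddit3, a C/EBP relative whose pairs do not bind the usual site, fell in both genotypes (-0.89 ± 0.13 in MED1-KO and -1.09 ± 0.13 in WT cells). Gata2, which binds C/EBP proteins and holds back fat cell formation, fell in WT cells (-1.40 ± 0.29). The calls of Trib1, Trib2 and Runx1t1 in MED1-KO cells were each lost for 2 or 3 of the 8 arrays left out (adjusted p up to 0.066, 0.099 and 0.058), as was that of Gata2 in WT cells without either day 2 array (0.07).

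Known C/EBP target genes of fat cells were lower in MED1-KO cells on day 2 for 4 of 14, with 0 higher and a median of -0.65. Over all genes, 0.234% were called lower and 0.0316% higher there. On day 0 none was called (median -0.07), and over both days none was (median -0.27). Pparg, the nuclear receptor that works with C/EBP alpha, was 5.84 and 5.87 in MED1-KO cells on day 2, against 7.94 and 7.80 in WT cells (-2.01 ± 0.13; adjusted p = 3.7e-04). Fabp4, a fatty acid carrier, was 3.92 and 4.20 in MED1-KO cells against 6.40 and 5.77 in WT cells (-2.03 ± 0.24; adjusted p = 0.012). Cidec, a lipid droplet protein, was at 4.28 and 4.51 in MED1-KO cells and 5.68 and 6.04 in WT cells (-1.46 ± 0.18; adjusted p = 0.016). Retn, which encodes the fat cell hormone resistin, was 4.53 and 4.87 in MED1-KO cells and 5.77 and 5.78 in WT cells (-1.07 ± 0.16; adjusted p = 0.037). The groups did not overlap for any of the 4, but the share of all genes without overlap was not counted. Pparg stayed called whichever array was left out, while Fabp4, Cidec and Retn each lost the call for 3, 3 and 6 of the 8 arrays (adjusted p up to 0.13, 0.18 and 0.33). With the source label's days all 4 calls were lost (adjusted p = 1 each), with values of -1.29 for Pparg, -0.73 for Fabp4, -0.70 for Cidec and -0.29 for Retn.

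Over the days, 4 of the 14 rose and 1 fell in WT cells (median 0.50), and 1 rose and 1 fell in MED1-KO cells (median -0.00). Of all genes, 3.44% rose and 5.64% fell in WT cells, and 2.14% rose and 3.57% fell in MED1-KO cells. The gene that fell was Ppargc1a in both genotypes. Its means were 4.68 on day 2 against 5.68 on day 0 in MED1-KO cells, and 4.75 against 5.97 in WT cells. With an array left out, its log2 change in MED1-KO cells ran from -1.30 to -0.69. Pparg was 0.80 ± 0.13 higher on day 2 in MED1-KO cells (adjusted p = 0.0063) and 2.02 ± 0.13 in WT cells (adjusted p = 4e-05). The call in MED1-KO cells was lost without MED1-KO day 0 replicate 1 (0.76; adjusted p = 0.063) and without MED1-KO day 2 replicate 2 (0.78; adjusted p = 0.051). Fabp4 was at least 5.97-fold higher on day 2 in WT cells, where its day 0 signals of 3.30 and 3.40 lay under the lower quartile of their arrays (3.49 to 3.56). That Fabp4 change is a bound because the dimmer group has no measured level. In the interaction none of the 14 was called (median -0.53).

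Known C/EBP target genes of the acute phase rose over the days in both genotypes, 7 of 10 in each and none falling. Their medians were 2.00 in MED1-KO and 2.51 in WT cells. Of all genes, 2.14% rose in MED1-KO cells and 3.44% in WT cells. Lcn2, which encodes an iron-carrier binding protein, had the smallest p of all 22180 genes in both. It was 9.44 and 9.40 in MED1-KO cells on day 2 against 4.52 and 4.62 on day 0, and 9.81 and 9.79 in WT cells on day 2 against 4.33 and 4.88 on day 0. These are 28.8-fold in MED1-KO cells (adjusted p = 6.6e-06) and 36.7-fold in WT cells (adjusted p = 3.5e-06). With the source label's days the Lcn2 changes were 0.03 in MED1-KO and 0.27 in WT cells (log2; adjusted p = 1 each). Orm2 and Orm3 are plasma carrier proteins whose probes may share signal, since the Orm genes are close copies. They rose 10.7-fold and 14.2-fold in MED1-KO cells and 26.4-fold and 27.2-fold in WT cells. Lbp was called in both genotypes as well. Its means were 9.42 on day 2 against 5.54 on day 0 in MED1-KO cells, and 7.72 against 5.27 in WT cells. This rise was larger in MED1-KO cells, but none of the 10 genes was called in the interaction. In MED1-KO cells the call of Hp, the haemoglobin-binding protein haptoglobin, was lost without day 0 replicate 1 (adjusted p = 0.071) or day 2 replicate 2 (0.061). That of Saa3 was lost there without day 2 replicate 1 (0.054).

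Between genotypes on day 2, 1 acute phase gene was higher and 1 lower (median -0.32), where 0.0316% of all genes were called higher and 0.234% lower. Lbp, the lipopolysaccharide-binding protein, was 9.21 and 9.62 in MED1-KO cells against 7.30 and 8.14 in WT cells (1.70 ± 0.26; adjusted p = 0.039). Saa3, a serum amyloid gene, was 5.53 and 5.41 in MED1-KO cells against 6.47 and 7.14 in WT cells (-1.33 ± 0.20; adjusted p = 0.036). Orm2 stood at 6.85 and 7.20 in MED1-KO cells and 8.10 and 8.64 in WT cells, a difference of -1.34 ± 0.25 that did not pass (adjusted p = 0.095). The calls of Lbp and Saa3 were each lost for 7 of the 8 arrays left out (adjusted p up to 0.29 and 0.26), and with the source label's days the values were 0.87 for Lbp and -0.79 for Saa3 (adjusted p = 1 each). On day 0, and over both days, none of the 10 was called (medians 0.09 and -0.10).

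**Figure D3:**
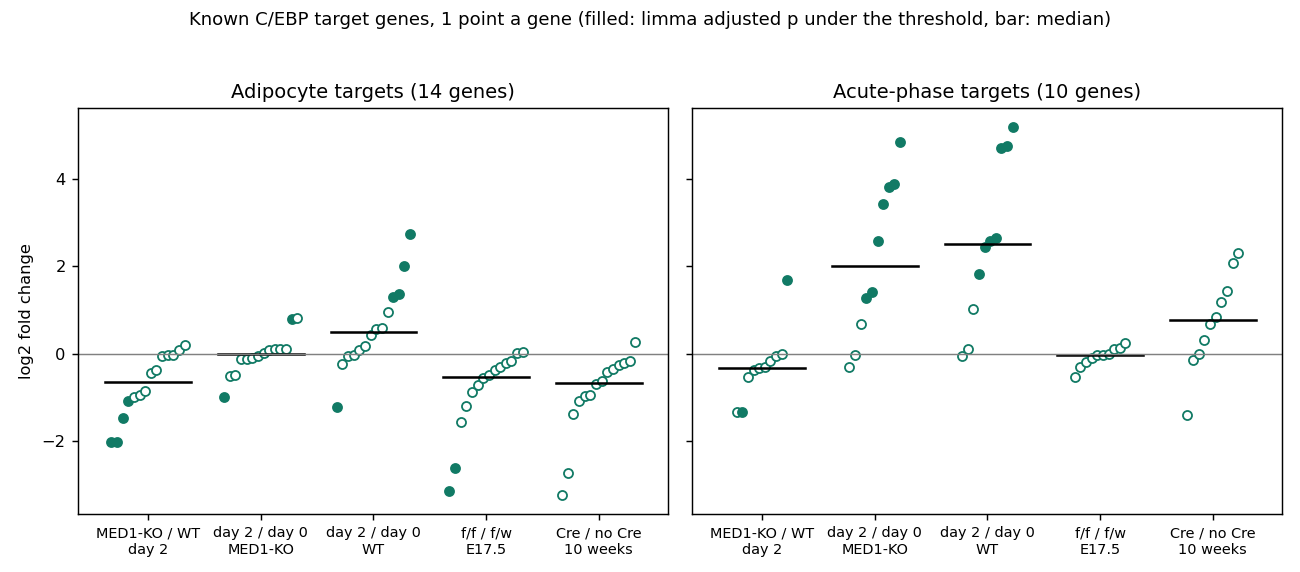
The log2 fold change of each listed C/EBP target gene is plotted for 14 fat cell and 10 acute phase targets in 5 comparisons, with a bar at the median of the list and filled points for an adjusted p under 0.05. On day 2 the fat cell targets have a median of -0.65 in MED1-KO over WT cells. Over the days 7 of 10 acute phase targets rise in each genotype, against 2.14% (MED1-KO) and 3.44% (WT) of all genes.

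Over the 8 cell arrays, the genes most like each member by Pearson's r were picked among 3309 genes above the median gene that varied. These values describe arrays that share their days, genotypes and normalization, so a gene that follows the day resembles any member that does. Cebpa was most like Pparg (r = 0.985), Peg10 (0.980) and Agtr2 (0.977). Cebpb was most like Prg4 (0.997), Tsc22d3 (0.997) and Ube2o (0.996), and Cebpd was most like Mocs1 (0.993), Dusp1 (0.992) and Tead4 (0.991). For Cebpg the nearest were Pom121 (0.974), Hipk2 (0.955) and Tmem167 (0.951). Cebpe resembled no gene closely, with 0.742 for Kcnn1 as its highest. Among the members themselves, Cebpb and Cebpd had the highest r at 0.96, Cebpa had 0.80 with Cebpb and 0.71 with Cebpd, and Cebpe had 0.07 to 0.32 with the rest.

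In embryonic BAT, Cebpa and Cebpb had lower means in Myf5CreMed1f/f than in Myf5CreMed1f/w, but neither gene passed the adjusted threshold. Cebpa was 8.43, 8.62, 8.40 and 8.24 in Myf5CreMed1f/f against 8.71, 9.09 and 8.94 in Myf5CreMed1f/w. The log2 fold change was -0.49 ± 0.12 (1.41-fold lower; limma, adjusted p = 0.079). Cebpb was 5.61, 5.76, 5.43 and 5.79 in Myf5CreMed1f/f against 6.34, 5.91 and 6.15 in Myf5CreMed1f/w (-0.48 ± 0.13; adjusted p = 0.1). No member was called, with 1.16% of all genes called. After dim genes were left out, Cebpa passed (limma, adjusted p = 0.044), but 1112 genes were called then, against 257 without this filter. Cebpa was called for 0 of the 7 arrays left out.

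Nor did the remaining members pass the test in the embryo. Cebpd was 3.80, 3.42, 3.33 and 3.76 in Myf5CreMed1f/f against 3.47, 3.23 and 3.37 in Myf5CreMed1f/w, with overlap (0.22 ± 0.14; adjusted p = 0.41). Cebpg was 6.77, 7.12, 6.99 and 7.05 in Myf5CreMed1f/f against 7.05, 7.05 and 7.28 in Myf5CreMed1f/w (-0.14 ± 0.10; adjusted p = 0.49). Cebpe was 3.87, 3.60, 3.60 and 3.60 in Myf5CreMed1f/f against 3.48, 3.61 and 3.60 in Myf5CreMed1f/w (0.10 ± 0.08; adjusted p = 0.53). The probe summary can give several arrays the same value, as for Cebpe here, which makes its spread look small.

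Markers of other cells moved with the embryonic genotypes. The mean log2 level of 10 skeletal muscle markers was 8.10 to 8.41 in Myf5CreMed1f/f arrays and 6.44 to 7.71 in Myf5CreMed1f/w arrays, all 10 above the array median in every array. That of 6 fibroblast markers was 8.69 to 8.82 in Myf5CreMed1f/f and 8.11 to 8.42 in Myf5CreMed1f/w, and 9 brown fat markers had 7.17 to 7.72 in Myf5CreMed1f/f and 8.39 to 8.97 in Myf5CreMed1f/w. The 6 macrophage markers overlapped at 6.50 to 6.82 in Myf5CreMed1f/f and 6.23 to 6.52 in Myf5CreMed1f/w. The part of these cells in the differences of Cebpa and Cebpb was not tested, and in tissue arrays fewer cells of a type and less RNA per cell cannot be told apart.

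Of the fat cell targets, 2 of 14 were lower in Myf5CreMed1f/f (median -0.52, with 12 of 14 negative), where 0.5% of all genes were called lower. Ucp1, the heat-making uncoupling protein, was 7.37, 8.34, 7.57 and 7.23 in Myf5CreMed1f/f against 10.64, 10.07 and 11.59 in Myf5CreMed1f/w (-3.14 ± 0.40; adjusted p = 0.044). Scd1, a fatty acid desaturase, was 7.03, 6.95, 6.41 and 6.31 in Myf5CreMed1f/f against 8.99, 8.57 and 10.31 in Myf5CreMed1f/w (-2.62 ± 0.41; adjusted p = 0.046). Both calls were lost with any array left out (limma, adjusted p 0.052 to 0.12 for Ucp1 and 0.056 to 0.13 for Scd1). No acute phase gene (median -0.02), upstream activator (0.02) or partner (-0.05) was called. The nearest genes to Cebpa over the 7 embryonic arrays, which share genotype and normalization, were Mecr (r = 0.988), Nadk (0.975) and Rilp (0.974) among 2973 candidates. Those nearest to Cebpb were Hnmt (0.990), Tiprl (0.976) and Nrbf2 (0.970).

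In adult BAT, Cebpa was 7.09 and 6.62 in AdipoqCreMed1f/f against 8.65 and 8.13 in Med1f/f, and Cebpg was 6.46 and 6.42 in AdipoqCreMed1f/f against 6.87 and 7.06 in Med1f/f. Neither gene passed the test with 2 arrays a group. The log2 fold change of Cebpa was -1.53 ± 0.25 (2.89-fold lower; limma, adjusted p = 0.11) and that of Cebpg -0.52 ± 0.14 (1.44-fold lower; adjusted p = 0.21). Of all genes, 0.0271% were called. In a fit of all 11 BAT arrays, which takes the spread as equal in the embryo and the adult and calls 7.56% of all genes, both passed (adjusted p = 0.0022 for Cebpa and 0.039 for Cebpg).

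Cebpb and Cebpd differed more between the 2 AdipoqCreMed1f/f arrays than between the group means. Cebpb was 6.62 and 5.62 in AdipoqCreMed1f/f against 6.53 and 7.29 in Med1f/f (-0.79 ± 0.41; adjusted p = 0.51). Cebpd was 3.21 and 4.28 in AdipoqCreMed1f/f against 3.09 and 3.45 in Med1f/f (0.48 ± 0.37; adjusted p = 0.69), and without AdipoqCreMed1f/f replicate 2 the difference was -0.06. Cebpe was 2.88 and 2.71 in AdipoqCreMed1f/f against 2.68 and 2.85 in Med1f/f (0.03 ± 0.15; adjusted p = 0.98). All 3 overlapped between the groups.

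Beside the adult values, 6 macrophage markers had a mean log2 level of 7.29 to 7.60 in AdipoqCreMed1f/f and 5.99 to 6.15 in Med1f/f, with 6 of 6 above the array median in every array. The 6 fibroblast markers had 7.24 to 7.54 in AdipoqCreMed1f/f and 6.71 to 6.89 in Med1f/f. The 9 brown fat markers had 7.93 to 8.38 in AdipoqCreMed1f/f and 8.71 to 9.48 in Med1f/f, and 5 general fat cell markers had 9.84 to 9.94 in AdipoqCreMed1f/f and 10.22 to 10.38 in Med1f/f. Their part in the Cebpa and Cebpg values was not tested.

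None of the fat cell or acute phase targets was called in adult BAT, with medians of -0.66 (13 of 14 negative) and 0.76. Among fat cell targets the largest differences were those of Pck1, a glycerol-making enzyme of fat (-3.24 ± 0.41; adjusted p = 0.08), and Retn (-2.73 ± 0.26; adjusted p = 0.052). Among acute phase genes they were Orm1 (2.31 ± 0.20; adjusted p = 0.052) and Orm2 (2.09 ± 0.21; adjusted p = 0.055). Orm1 stood at 9.88 and 10.26 in AdipoqCreMed1f/f against 7.60 and 7.91 in Med1f/f. Upstream activators and partners had medians of 0.23 and -0.08, with none called.

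**Figure D4:**
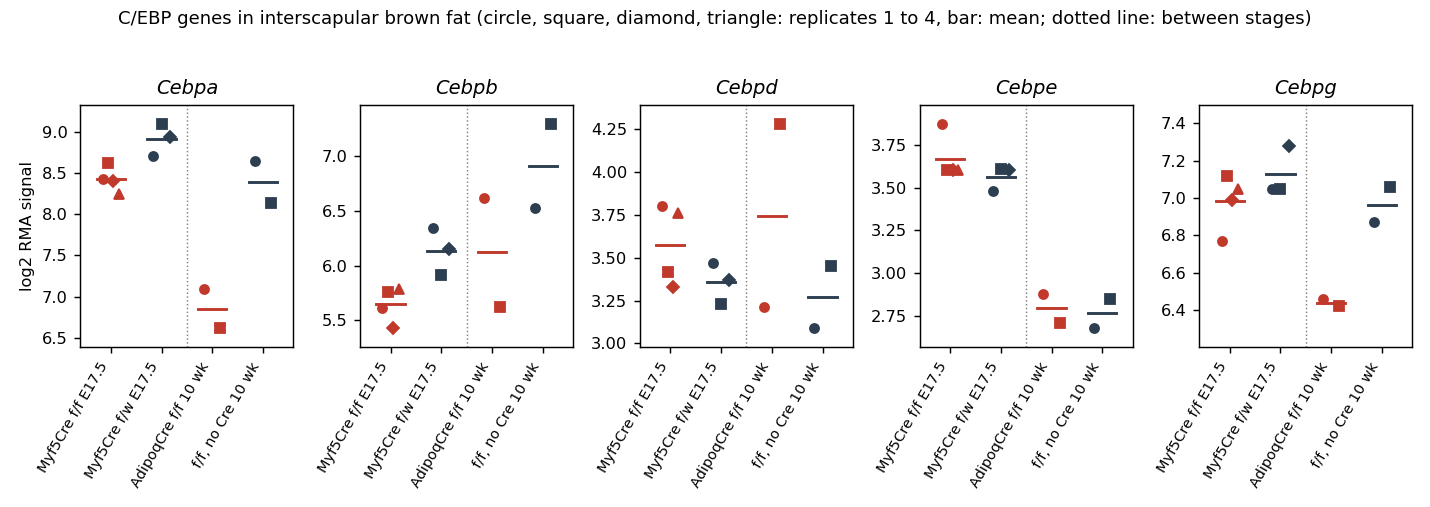
The log2 signal of the 5 C/EBP genes is plotted for each BAT array, with a bar at the group mean and a dotted line between E17.5 and 10 weeks, whose levels are not on a shared scale. Cebpa lies at 8.24 to 8.62 in Myf5CreMed1f/f below 8.71 to 9.09 in Myf5CreMed1f/w, and at 6.62 and 7.09 in AdipoqCreMed1f/f below 8.13 and 8.65 in Med1f/f.

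Whether the knockout difference itself differed between adult and embryonic BAT was tested over the 11 arrays, with Cre line, age and control genotype differing together. No member was called, with 1.99% of all genes called. The adult minus the embryonic difference of Cebpa was -1.04 ± 0.26 (adjusted p = 0.076), and it passed without AdipoqCreMed1f/f replicate 1 (-1.27; adjusted p = 0.048). The other members gave -0.31 ± 0.39 for Cebpb, 0.25 ± 0.37 for Cebpd, -0.08 ± 0.15 for Cebpe and -0.38 ± 0.17 for Cebpg (adjusted p 0.29 to 0.87). With an array left out the sign turned for Cebpb (0.07 without Med1f/f replicate 2 and 0.19 without AdipoqCreMed1f/f replicate 2) and for Cebpd (-0.29 without AdipoqCreMed1f/f replicate 2). Of the acute phase targets 5 of 10 had a higher difference in the adult (Orm1, Orm2, Cd14, Lcn2 and Orm3), and of the fat cell targets Retn had a lower one (-2.35 ± 0.36; adjusted p = 0.013). In the same comparison 6 of 6 macrophage markers were positive (median 1.14), with Adgre1 (1.33 ± 0.16) and Csf1r (1.15 ± 0.18) called, and 10 of 10 skeletal muscle markers were negative (median -1.34), with Des (-2.05 ± 0.25) called. Their part in these differences was not tested.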

How the data were processed

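RNA was measured on 19 Affymetrix mouse arrays, and the authors deposited 1 table of log2 values. Per the submitters' processing notes, the tools were Transcriptome Analysis Console and RMA (versions not listed). RMA corrects background, brings arrays to one distribution and summarises probes as log2 signals. The sources used here name no genome build or annotation. Table medians differ between the 3 experiments, which look normalized separately, so levels stay within an experiment. Tests do too, except the adult minus embryonic difference and the fit of all BAT arrays, which pool embryonic and adult arrays.

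Of 41345 clusters, 23521 have 1 gene symbol, 1814 several and 16010 none. For 1082 genes with more than 1 cluster the one with the highest mean was used. Tests used limma 3.58.1 in R 4.3.3 (lmFit, eBayes), two-sided, with Benjamini-Hochberg adjustment over 22180 genes and a threshold of 0.05. The same fits were run on simulated arrays with independent noise, which cannot speak for noise shared between arrays of the same number. Values after ± are standard errors. A fold is given as a bound where every array of the dimmer group lies under its own lower quartile, a rule set with values known. The number of arrays limits the precision.

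Groups follow the sample titles. For the cells, titles and source labels disagree on the day of 4 arrays. The fit over both days used 4 pairs of MED1-KO and WT arrays with the same title day and replicate number. Their deviations from group means correlated at 0.35 on day 0 and 0.30 on day 2, above 0.1 in every pair, though with 2 arrays a group the pairs of a day mirror each other. Day-specific comparisons used a fit of 4 groups, embryonic and adult BAT a fit each, and the difference between them a fit of 11 arrays. The comparisons of cells share arrays. Nothing in the labels says that replicates are separate cultures or animals, so p-values cover only the spread among these arrays, which may be technical.

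The members, lists, tests and alternatives were chosen with earlier results of these data known. All members and Med1 are named in every comparison, and of each list up to 4 genes, called ones with the largest change first. Of the likeness lists, made of genes at or above the median gene with an SD of at least 0.25, the 3 nearest were taken, without predicted, small RNA and olfactory genes. Atf1 and the 4 erythroid markers have no cluster with 1 symbol. Alternatives were the mean of a gene's clusters, a filter on dim genes, trend and robust fitting, quantile normalization, leaving out each array, the replicate block, the source label's days and a fit of all BAT arrays.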

Additional observations from a re-analysis of the deposited data

Results flagged for a closer look

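In Myf5CreMed1f/f embryonic BAT, 1 of the 4 arrays stood apart from the other 3 for 5 of 45 genes looked at, by a gap past Dixon's 95% critical share of the range. Chance alone gives about 1 such group in 20. Cebpe was 3.87 in replicate 1 and 3.60 in the others. Nr3c1 was 7.41 in replicate 4 and 7.36 in the others. Gata3 was 3.59 in replicate 4 and 3.79 in the others. Saa3 was 2.99 in replicate 3, against 2.62 to 2.67 in the others, and Orm3 was 2.78 in replicate 4, against 2.45 to 2.51 in the others. For Cebpe, Nr3c1 and Gata3 the other 3 arrays hold the same value, so a small gap fills the whole range.

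The difference between Med1-deleted and control BAT was itself different in the adult and in the embryo for 6 of 45 genes (limma, adjusted p under 0.05). Adult minus embryonic, it was -2.35 for Retn, 1.38 for Lcn2, 2.19 for Orm1, 2.09 for Orm2, 1.36 for Orm3 and 1.47 for Cd14. No member was among them, and 1.99% of all genes were called in this comparison. The macrophage markers moved with this comparison (6 of 6 positive, median 1.14, Adgre1 and Csf1r called), and their part was not tested. The calls of Lcn2, Orm1 and Orm3 were each lost with at least 1 array left out (adjusted p up to 0.07, 0.059 and 0.052).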

How the results depend on the processing

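The number of members called changed under these alternatives. Over both days it was 0, and 1 (Cebpa) with trend and robust fitting and 1 with no replicate block. On day 2 it was 1, and 0 with the source label's days and 0 to 1 with an array left out, lost only without MED1-KO day 2 replicate 2. Over the days it was 3 in each genotype, and 0 in both with the source label. In MED1-KO cells it was lower without MED1-KO day 2 replicate 1 or MED1-KO day 0 replicate 2, where Cebpa lost its call. In the embryo it was 0, and 1 with the filter on dim genes. In the adult it was 0, and 1 (Cebpa) with the replicate block and 2 in the fit of all 11 BAT arrays. For adult minus embryo it was 0, and 0 to 1 with an array left out. The other values of this count were as given.

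Groups made with the source label mix the title days. With them, day changes in MED1-KO cells turned sign for Cebpa (-0.17), Cebpd (-0.11), Trib1 (-0.63), Ppargc1a (0.41), Saa3 (-0.04), Orm1 (-0.16) and Orm3 (-0.52). In WT cells they turned for Cebpa (-0.03), Cebpd (-0.39), Cebpe (-0.09), Cebpg (-0.17), Nr3c1 (0.01), Stat3 (-0.08), Ddit3 (0.06), Trib1 (-0.41), Pparg (-0.16), Fabp4 (-0.27), Retn (-0.17), Cidec (-0.03), Ppargc1a (0.15), Hp (-0.03), Orm1 (-0.28) and Orm3 (-0.40). Cebpe on day 0 became -0.03, and the interactions of Cebpe and Cebpg became 0.28 and 0.00. With an array left out, Cebpb on day 2 ran from -0.35 to 0.03 and Cebpd in the adult from -0.06 to 1.02, and for adult minus embryo Cebpb ran from -0.81 to 0.19 and Cebpd from -0.29 to 0.79. The cause was not tested.

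Counts of all genes called moved further. Over both days, 64 became 177 with the dim filter, 245 with trend and robust fitting, 9 with no block by source label and 20 to 32 with a pair left out. On day 0, 41 became 1 by source label and as few as 3 with an array left out, and on day 2, 59 became 0 and as few as 12. Day changes went to 0 in both genotypes by source label, and as low as 496 of 1265 (MED1-KO) and 1143 of 2012 (WT) with an array left out. The interaction had 0, 1 with the replicate block and up to 2 with an array left out. The embryo's 257 became 1112 (dim filter), 814 (11 arrays), 0 (replicate block) and 0 with any array left out. The adult's 6 became 68 (dim filter), 78 (trend), 66 (quantile), 139 (replicate block), 1676 (11 arrays) and 0 with any array left out. The 441 for adult minus embryo fell to 206 at the lowest.

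Replicate numbers in BAT, and between days, were not used as pairs in the main fits. Deviations correlated at 0.31, -0.02 and 0.11 in the embryo, 0.33 in the adult, and 0.17 (MED1-KO) and 0.03 (WT) between days. The adult value lies between those of the cell pairs (0.30 on day 2 and 0.35 on day 0), so it does not set the adult arrays apart from them. With the replicate block the adult Cebpa had an adjusted p of 0.044, and the embryonic Ucp1 and Scd1 calls were lost (0.11 and 0.14). RMA values carry no background test, so for Cebpe, near the middle of every array, no change cannot be told from no signal.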
